A study of Drosophila melanogaster with 3 samples.

Results

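Of 3844 peaks of the CG12942 fusion protein in fly embryos, 760 (19.8%) had their summit at a head-to-head promoter. A head-to-head promoter was defined here by a pair of protein-coding genes on opposite strands, transcribed away from each other, whose transcription starts lay at most 500 bp apart. A summit counted when it lay within 500 bp of both starts, and it was described by the start pair nearest to it. The 760 summits fell on 712 gene pairs with 1423 genes, and they made up 37.8% of the 2008 summits within 500 bp of any protein-coding start.

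The study was a ChIP-seq experiment on whole Drosophila melanogaster embryos, collected at 0 to 24 hours and of mixed sex. The embryos carried a stably inserted transgene coding for CG12942 with green fluorescent protein at its C terminus, and chromatin sheared by sonication to 200 to 800 bp was precipitated with an antibody against that tag. There was 1 group of 3 biological replicates from separate biosamples, with no second genotype or stage. All embryonic tissues were mixed, so a site used by few cells and a site weakly used by many cannot be told apart. The peaks are the authors' optimal set, kept by their IDR procedure for agreement between replicates, and the signal of a peak is the value written by their peak caller. The read depth is unknown, so ranks within a list stand in for absolute strength. For each replicate, the 3844 peaks of highest signal were taken from its list of 30000, 30000 or 27869 peaks, so that replicates 1, 2 and 3 could be compared with the optimal set at equal size.

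Head-to-head genes share the stretch of DNA between their starts, which serves as the upstream region of both. The arrangement is common in the compact fly genome and frequent among housekeeping genes, which are active in most cells. Such promoters are known in flies for the DRE, the site of the factor DREF, and for the overlapping core site of the insulator protein BEAF-32.

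The shared stretch is shown for 3 pairs whose peak was found in all 3 replicates, to let the position of the summit be read against the bases. They were taken in order of signal on the arms shown, among pairs with no annotated exon in the stretch and a summit at least 10 bp inside it, 1 with starts over 100 to 200 bp apart and 2 with starts over 200 to 300 bp apart. Capitals mark the 21 bases centred on the summit, and each sequence runs 5′ to 3′ on the plus strand from the base after the minus-strand start to the base before the plus-strand start. Bdp1 codes for a subunit of the RNA polymerase III factor TFIIIB, Tcs5 for a kinase of the tRNA-modifying KEOPS complex, CHMP2B for an ESCRT-III protein, Art3 for an arginine methyltransferase and mRpS10 for a mitochondrial ribosomal protein. The positions on dm6 are chr2L:13373891-13374018, chr3L:5139396-5139618 and chr3R:15229409-15229664, and the bases come from the RefSeq release 6 genome, which is the same assembly.
Bdp1/CG6565: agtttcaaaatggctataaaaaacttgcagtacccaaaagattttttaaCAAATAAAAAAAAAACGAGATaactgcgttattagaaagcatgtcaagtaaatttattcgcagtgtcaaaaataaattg
Tcs5/CHMP2B: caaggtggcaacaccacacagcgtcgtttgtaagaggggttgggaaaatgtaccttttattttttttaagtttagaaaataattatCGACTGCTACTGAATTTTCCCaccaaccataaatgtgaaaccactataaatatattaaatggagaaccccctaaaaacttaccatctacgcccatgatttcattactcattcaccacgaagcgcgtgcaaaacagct
Art3/mRpS10: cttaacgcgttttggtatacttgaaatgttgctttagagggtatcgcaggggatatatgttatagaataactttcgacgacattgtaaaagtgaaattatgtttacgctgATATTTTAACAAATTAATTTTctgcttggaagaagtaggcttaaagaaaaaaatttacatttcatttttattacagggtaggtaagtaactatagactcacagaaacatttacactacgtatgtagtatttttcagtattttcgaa

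Further windows, reaching 50 bp to each side of the summit, show strong peaks, outside annotated exons, that hold a motif treated with the results on motifs. Capitals mark the motif on either strand. RpL28/eIF1 at chr3L:3223003-3223103 and Su(P)/CG4101 at chr3L:16612354-16612454 hold the DRE. RpL28 codes for a ribosomal protein and eIF1 for a translation initiation factor. Hs2st/RanGAP at chr2L:19444791-19444891 holds core promoter motif 7, and Fur1/Vps33B at chr3R:25473256-25473356 and Ino80/Aptx at chr3R:19403258-19403358 hold the 7-mer AGTGTTG, written CAACACT on the plus strand. All are dm6 positions on the plus strand with RefSeq release 6 bases.
RpL28/eIF1: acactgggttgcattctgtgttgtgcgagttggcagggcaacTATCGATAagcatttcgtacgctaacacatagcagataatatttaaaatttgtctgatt
Su(P)/CG4101: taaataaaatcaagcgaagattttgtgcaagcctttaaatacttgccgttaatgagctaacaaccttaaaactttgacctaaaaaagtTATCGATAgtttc
Hs2st/RanGAP: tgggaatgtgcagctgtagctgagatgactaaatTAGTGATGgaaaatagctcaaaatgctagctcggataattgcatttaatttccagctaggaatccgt
Fur1/Vps33B: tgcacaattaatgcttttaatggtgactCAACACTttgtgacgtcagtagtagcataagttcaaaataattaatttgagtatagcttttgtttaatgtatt
Ino80/Aptx: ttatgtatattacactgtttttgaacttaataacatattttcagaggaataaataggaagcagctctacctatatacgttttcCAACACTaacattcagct

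The count of head-to-head summits was close between replicates. The top peaks held 723, 744 and 736 of them in replicates 1, 2 and 3, which is 19.1% ± 0.276 (SD, n = 3) of each list. Summits near the start of exactly 1 gene numbered 1140 in the optimal set, 108 lay near several genes in another arrangement, and 1836 lay near no protein-coding start. Of the 760 summits, 537 had a summit within 200 bp in the top 3844 of all 3 replicates, 171 in 2 replicates, 51 in 1 and 1 in none.

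Of all 1995 head-to-head pairs on the 6 chromosome arms, 776 (38.9%) had a head-to-head summit in the optimal set. The same share was 36.8%, 37.7% and 37.5% in replicates 1, 2 and 3 (mean 37.3% ± 0.483, SD, n = 3). A single summit lay at 724 of the bound pairs and 2 summits lay at 52. The distance between the 2 summits had a median of 202 bp, a smallest value of 199 bp and a largest of 1889 bp. Summits at different start pairs of the same genes were included, and whether the spacing depends on the peak caller was not tested. The same 565 pairs had a summit in all 3 replicates, and 1071 had one in none. Counted by gene, 1473 of the 3815 genes in such pairs (38.6%) belonged to a pair with a summit. Of all 13945 protein-coding genes, 19.2% had any optimal summit no more than 500 bp from a start. The first share counts both genes of a pair for 1 shared summit, and the second includes the head-to-head genes. The 2 shares are therefore not a like measure. Some genes belong to more than 1 pair, so pairs are not independent of each other. In the stronger 1922 peaks of the optimal set there were 469 head-to-head summits on 25.1% of the pairs.

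The limits of the definition cut through a continuous range. The farther start of tank/CG12194 was 499 bp from its summit and counted, and that of Mst36Fa/CG31751 was 506 bp away and did not. The starts of su(Hw), which codes for an insulator protein, and Polr2I, an RNA polymerase II subunit, lay 500 bp apart and counted, while those of Meics/ssp2 lay 501 bp apart. The closest starts with a peak were those of CG7246 and HP1b, a heterochromatin protein 1 family gene, at 6 bp.

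The summits lay mostly in the shared stretch. Of the 760, 634 (83.4%) lay between the starts, where 40.8% of the base positions open to a summit by definition lie. A summit between the starts is upstream of both genes. At promoters of 1 gene, 87.6% of the 1140 optimal summits lay at or upstream of the nearest start. In replicates 1, 2 and 3 that share was 82.1%, 86% and 87.9%, so an upstream position was not particular to head-to-head pairs. When a summit had several start pairs, the nearest was used, which favours starts that enclose the summit. The allowed share was taken for the chosen starts alone, so part of the difference can follow from this choice. With 1 canonical transcript per gene 82.5% lay between the starts, and the allowed share was not computed for that setting. In replicates 1, 2 and 3 the share between the starts was 80.4%, 84.9% and 83.3% (mean 82.9% ± 2.32, SD, n = 3). The excess over the allowed share was 42.3 percentage points ± 1.62 and was positive in 3 of 3 replicates (exact sign permutation test, two-sided, p = 0.25). With 3 replicates 0.25 is the smallest p this test can give, so no comparison over the replicates here could reach 0.05.

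The summits divided almost evenly between the strands. The summit was nearer to the minus-strand start in 375 cases, nearer to the plus-strand start in 382 and equally far from both in 3. Which gene of a pair lies on which strand is arbitrary, so these counts cannot show whether 1 gene was favoured within a pair. It lay within 50 bp of the midpoint in 335 cases (44.1%). Every summit between starts at most 100 bp apart does so by definition, and the share of positions allowed was not computed for this limit. The distance to the nearer start had a median of 76, 81 and 84 bp in the replicates (mean 80.3 bp ± 4.04, SD, n = 3). At promoters of 1 gene the signed distance had a median of 135 bp ± 10.6 upstream of the start over the same replicates. Without the sign its median was 150, 161 and 170 bp. These are distances to 1 gene rather than to the nearer of 2, so they are not a like measure.

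Of the 634 summits between the starts, 536 (84.5%) were intergenic, 57 lay in an intron, 40 in an untranslated exon and 1 in coding sequence. Of the 126 outside the starts, 111 (88.1%) lay in an untranslated exon, 14 in an intron and 1 in coding sequence. A summit outside the starts lies, by definition, downstream of the nearer one.

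**Figure D1:**
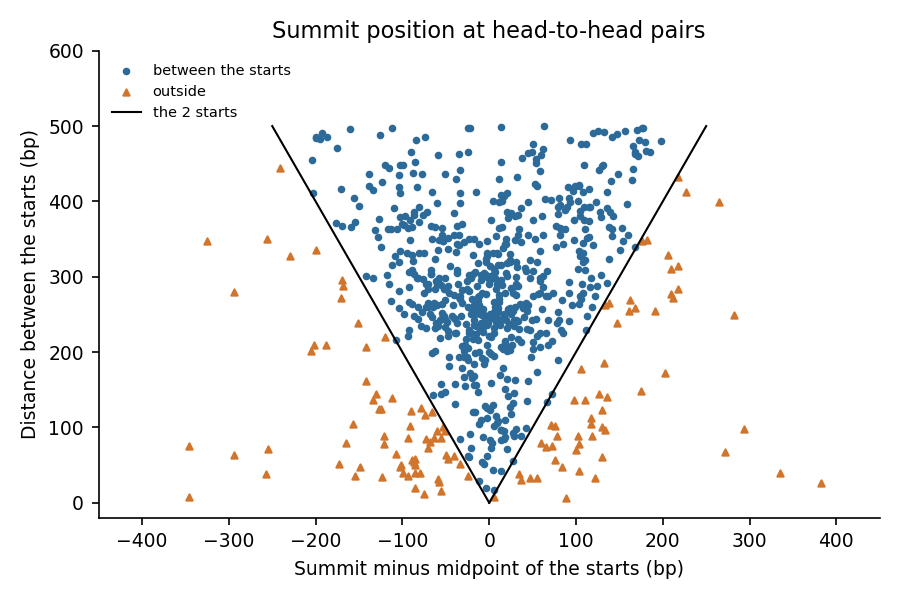
Each point is 1 of the 760 optimal summits; the horizontal axis gives its distance in bp from the midpoint of the 2 starts (minus-strand start to the left), the vertical axis the distance in bp between the starts, and the lines mark the starts. The 634 circles lie between the lines and the 126 triangles outside, and most triangles belong to closely spaced starts.

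The share of pairs with a peak differed with the distance between their closest starts. A summit at any start pair of the genes counted, so a pair could have its summit at starts farther apart than its class. At 0 to 100 bp 130 pairs had a summit, while 96 summits were described by starts that close. Among the 542 pairs with starts over 200 to 300 bp apart, 48.7% had a summit, and among the 400 pairs at over 300 to 400 bp 48%. The share was lower at both ends, with 30.2% of 430 pairs at 0 to 100 bp, 29.2% of 356 at over 100 to 200 bp and 32.2% of 267 at over 400 to 500 bp.

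In the replicates the share at over 200 to 300 bp was 46.1%, 47% and 48.7%, against 30.9%, 28.4% and 27.4% at 0 to 100 bp. The first of these classes was picked as the one with the highest share in the optimal set, so its direction is a description. The groups did not overlap, and the difference was 18.4 percentage points ± 3.05 in the same direction in 3 of 3 replicates. The pairs at over 200 to 300 bp also exceeded those at over 400 to 500 bp, by 16.6 points ± 1.19 in 3 of 3 replicates. The last and the first class differed by 1.8 points ± 3.38, with 2 of 3 replicates in that direction (exact sign permutation p = 0.5).

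The window open to a summit shrinks as the starts move apart, so the same counts were also divided by a window length. This was the length of the window around the closest starts of each pair. Genes with further starts had more window than this, so the values per kb are approximate. Per kb of window, 0.32 pairs had a summit at 0 to 100 bp, 0.342 at over 100 to 200 bp, 0.652 at over 200 to 300 bp, 0.733 at over 300 to 400 bp and 0.582 at over 400 to 500 bp. On this scale the widest class exceeded the closest by 0.249 ± 0.0478 (SD, n = 3) in 3 of 3 replicates (exact sign permutation p = 0.25), and its difference from the class at over 200 to 300 bp was -0.0785 ± 0.0214.

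**Figure D2:**
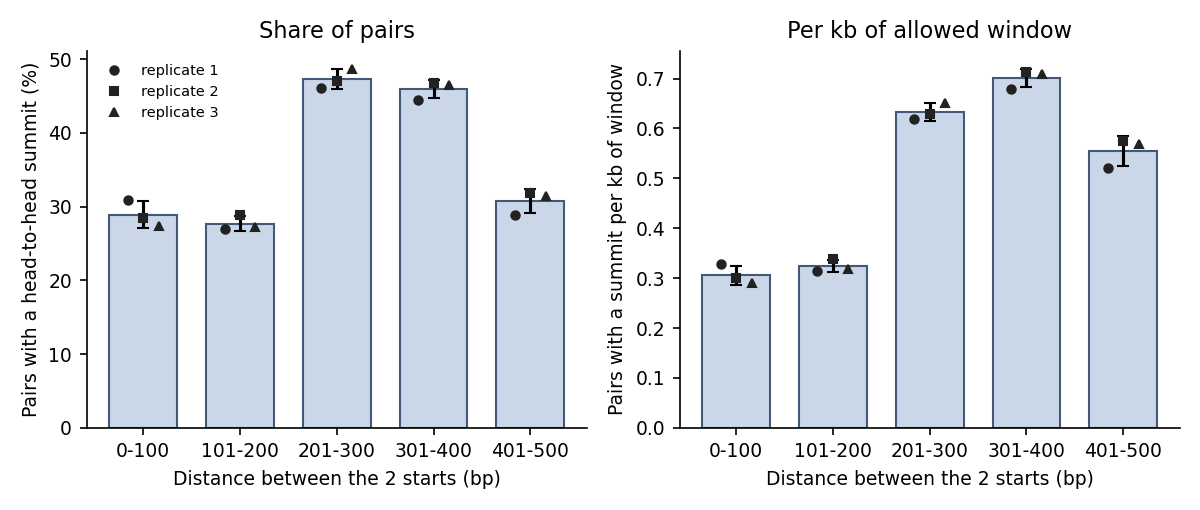
Head-to-head pairs with a summit by the distance between their closest starts in bp, as a share of pairs in percent (left) and per kb of the window around these starts (right). Bars are means of 3 replicates, error bars the SD, points the replicates. The shares at over 200 to 300 and over 300 to 400 bp stand above the others in every replicate, and per kb the class at over 400 to 500 bp stands above the 2 closest classes.

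Summit position moved with the distance between the starts that described the summit. At starts 0 to 100 bp apart 31.2% of 96 summits lay between them (6.7% of positions allowed), and at over 100 to 200 bp 70.8% of 89 did (17.7% allowed). From over 200 bp on nearly all did, with 92.2% of 268 at over 200 to 300 bp (34.4% allowed), 95%, or 191 summits, at over 300 to 400 bp (53.8% allowed) and 97.2% of 106 at over 400 to 500 bp (82.5% allowed).

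The median distance from the summit to the nearer start rose across the 5 classes from 35.5 bp through 54, 85.5 and 107 to 113 bp. Between the starts this distance has a limit that grows with the class, so a rise also follows from the definition. The median distance to the midpoint was 62.2 bp at 0 to 100 bp, 29.5 bp at over 100 to 200 bp and 42.5, 75.5 and 105 bp in the wider classes. Over the replicates it was 44.9 bp ± 8.67 at over 100 to 200 bp and 48.1 bp ± 1.66 at over 200 to 300 bp. The former was the smaller in replicate 2 alone. In the widest class the replicate medians were 115, 119 and 129 bp to the nearer start (mean 121 bp ± 7.21) and 108, 104 and 97 bp to the midpoint (mean 103 bp ± 5.41). In the widest class both medians were thus of similar size. For a summit between the starts both distances add up to the distance from a start to the midpoint. Summits spread evenly over the stretch would also give similar medians, so no preferred position can be read from them.

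Head-to-head peaks ranked high. Of the strongest 961 optimal peaks 264 (27.5%) were head-to-head, followed by 205 (21.3%), 153 (15.9%) and 138 (14.4%) in the next 3 blocks of 961. Of the strongest 100, 32 were head-to-head and 31 lay at promoters of 1 gene. Their optimal signal ran from 78.9 to 1182 with a median of 150, and their ranks from 6 to 3844.

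In the replicates the median signal percentile of head-to-head summits within the top 3844 was 59.7, 64.9 and 64.1. For summits at promoters of 1 gene it was 50.8, 50.8 and 51.6, and for summits away from promoters 46.3, 43.4 and 44. The head-to-head summits were higher than those of single genes by 11.8 percentile points ± 2.65 in 3 of 3 replicates (exact sign permutation p = 0.25). Against summits near several genes in another arrangement the difference was 15.3 ± 4.17, and against those away from promoters 18.4 ± 4.3, each in 3 of 3 replicates (exact sign permutation p = 0.25). Within the stronger 1922 peaks of each replicate the difference from single genes was 3.22 points. On the scale of the whole lists, which squeezes the top peaks together, it was 1.56 points.

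**Figure D3:**
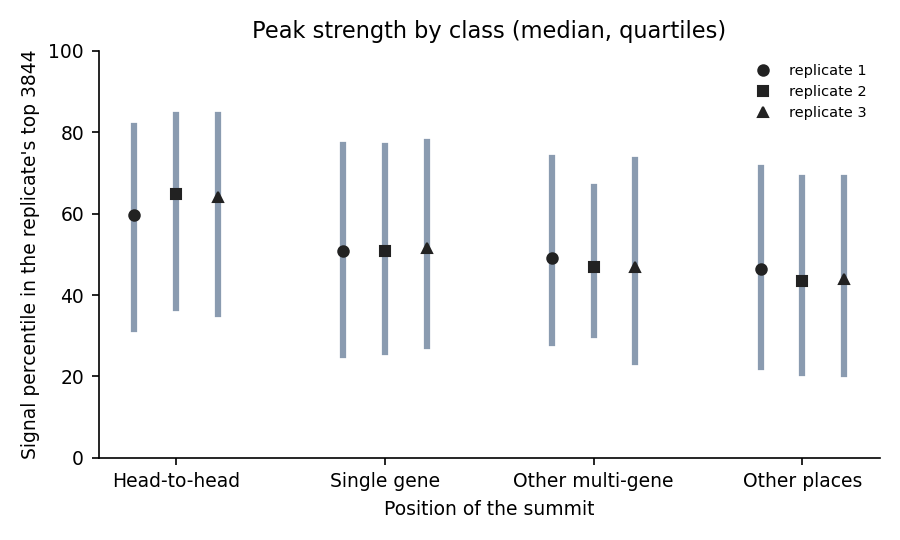
Median (symbol) and quartiles (bar) of the signal percentile within each replicate's top 3844 peaks, by class of the summit; the vertical axis runs from 0 to 100. Head-to-head medians of 59.7, 64.9 and 64.1 stand above those of single-gene promoters at 50.8, 50.8 and 51.6, and the quartile bars overlap.

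Strength varied among the head-to-head peaks themselves. Peaks at starts over 200 to 300 bp apart had a median percentile of 68.9 in the optimal set and those at over 400 to 500 bp 50.2, and over the replicates they differed by 17.5 points ± 3.62 in 3 of 3. These classes were set against each other after their values were seen. Summits between the starts and outside them showed no steady order, with differences of 12.1, -7.86 and -5.62 points in replicates 1, 2 and 3 (exact sign permutation p = 1).

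A match in each replicate's top 3844 was found for 70.7% of head-to-head summits, against 63.6% of single-gene promoter summits and 63.5% of all optimal peaks. The difference of 7.06 points from single genes was 1.95 points in the stronger 1922 peaks and 4.47 points when replicate 3 was left out and a match in both others was asked for. Matched summits of a pair of replicates lay a median of 27.7 bp ± 1.53 apart at head-to-head promoters (SD over 3 replicate pairs) and 27.3 bp ± 2.08 at single genes. Most head-to-head peaks, 63%, had the same width of 404 bp. That width was also the most frequent elsewhere, at 65.9% of single-gene, 68.5% of other multi-gene and 73.1% of peaks away from promoters.

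The strongest 20 head-to-head peaks found in all 3 replicates had optimal signals of 641.4 or more and replicate ranks from 5 to 105. Their starts lay 27 to 492 bp apart (median 245 bp), 13 had the summit between the starts, and 7 had it outside. The strongest was at Chro, which codes for the chromodomain protein Chromator, and Ssl1, a TFIIH subunit. Its signal was 367.4, 368.6 and 448.8 in replicates 1, 2 and 3, at ranks 12, 7 and 5. Its starts lay 105 bp apart, and the summit lay outside them, 104 bp inside the Chro transcript.

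Tcs5/CHMP2B had signals of 362.8, 372.3 and 414 at ranks 13, 5 and 10, with its summit 15 bp from the midpoint of starts 224 bp apart. Art3/mRpS10 had signals of 413.1, 333.9 and 410.4 at ranks 6, 10 and 11, with its summit 7.5 bp from the midpoint of starts 257 bp apart. CG5611/Mtl, where Mtl codes for a Rac-like GTPase, had signals of 326, 316.3 and 393 at ranks 16, 14 and 13 and starts 352 bp apart. These 3 peaks were intergenic, near the middle of the shared stretch, and within the top 16 in every replicate.

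Atat/Shc, an α-tubulin acetyltransferase and a signalling adaptor, had signals of 275.5, 311.5 and 384.8 at ranks 27, 16 and 14, with the summit 6 bp from the midpoint of starts 252 bp apart. mRpS23/CenG1A had signals of 299.2, 273.6 and 328.1 at rank 21 in each replicate, and was the strongest pair with starts over 400 bp apart, at 492 bp. Fbw5/CG9147 had signals of 301.9, 268.2 and 298.1 at ranks 19, 22 and 25, with its summit exactly on the CG9147 start. The first of these was centred and the other two were nearer to the plus-strand gene, so strong peaks did not share 1 position.

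Pex11ab/CG8320, with a peroxisome gene, was the strongest pair with starts at most 100 bp apart. Its signals were 286.9, 330.7 and 372 at ranks 24, 12 and 16, and its summit lay 105 bp beyond the nearer start of a pair only 33 bp apart. CG5757/CG5098 had signals of 237, 258.5 and 341.5 at ranks 47, 24 and 19, with its summit 315 bp beyond the nearer start. It was the third strongest peak outside the starts, after those of Chro/Ssl1 and Pex11ab/CG8320.

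The other strong pairs spanned many roles. Lon/PIG-F, a mitochondrial protease and a GPI anchor synthesis gene, ranked 52, 59 and 52, and Reps/l(2)gd1, with an endosomal regulator of Notch, ranked 67, 51 and 32. eIF4EHP/CG18428, with a cap-binding repressor of translation, ranked 75, 49 and 43, and mRpL23/CG9004 ranked 82, 39 and 33.

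The promoter of CG12942 itself was among the 760, paired head-to-head with cag. The starts lay 344 bp apart and the optimal summit lay between them, 37 bp from the midpoint, with signal 170.3 and rank 1150. The replicate values were 31.25, 83.89 and 57.61 at ranks 3981, 425 and 1228. Replicate 1 was low and outside its top 3844, and replicates 2 and 3 were inside theirs.

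Gene groups were counted among the genes of head-to-head pairs, beside the 38.6% of all such genes that belonged to a pair with a summit. Cytoplasmic ribosomal proteins had 26 of 36 (72.2%), and in replicates 1, 2 and 3 the share was 75%, 72.2% and 66.7%. Their strongest peaks were at RpS27/Nup37 with an optimal signal of 481.7, at Ripalpha/RpL7 with 473 and at RpL34b/CG8132 with 448.5. At RpS27/Nup37 the replicate signals were 161, 153.2 and 166.3 at ranks 130, 104 and 134. This pair also belongs to the nuclear pore list.

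Mitochondrial ribosomal proteins had 24 of 54 (44.4%) and the respiratory chain with ATP synthase 16 of 36 (44.4%), with replicate means of 44.4% ± 8.07 and 44.4% ± 5.56. Of the 75 mitochondrial ribosomal genes 54 (72%) were in head-to-head pairs, against 27.4% of all protein-coding genes. Their strongest peaks were at mRpS10, mRpS23 and mRpL23. In the respiratory list the strongest was at TppII/ND-MWFE, with a complex I subunit, at a signal of 332.5.

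Aminoacyl-tRNA synthetases, which load tRNAs, had 11 of 21 (52.4%), and nuclear pore genes 8 of 15 (53.3%). Their replicate means were lower, at 44.4% ± 7.27 and 42.2% ± 7.7. RNA polymerase II subunits had 5 of 8 (62.5%; mean 50% ± 12.5), Mediator 9 of 19 (47.4%; mean 45.6% ± 3.04) and the genes with TfII or Taf symbols 5 of 12 (41.7%; mean 41.7% ± 8.33). The strongest peak of each list, in this order, was at SerRS/CG17260 with 321.7, RpS27/Nup37 with 481.7, 140up/Polr2B with 359.6, MED30/Rev1 with 414.8 and Taf5/Pex6 with 263.4. The last list went by symbol and did not hold Ssl1.

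Proteasome subunits had 8 of 24 (33.3%) and translation initiation factors 5 of 18 (27.8%), beside 38.6% of all head-to-head genes. In replicates 1, 2 and 3 the proteasome share was 25%, 37.5% and 33.3%, and the initiation factor share 33.3%, 16.7% and 33.3%. Both lists are small, and whether they differ from all head-to-head genes was not tested. Hat1/Rpn5 was the strongest of the proteasome list at 264.5. Genes known only by a CG number had 445 of 1290 (34.5%). Cuticle proteins had 0 of 3 and chemoreceptors 1 of 16, the latter being Ir60e with a signal of 83.11. In the replicates the cuticle share was 33.3%, 0% and 0%, and the chemoreceptor share 6.25%, 0% and 0%. Few genes of these last lists lie in head-to-head pairs at all, with 3 of 110 cuticle and 16 of 179 chemoreceptor genes.

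By chromosome arm, the share of pairs with a summit was 38.7% on 2L, 36.1% on 2R, 42.6% on 3L, 44.8% on 3R and 27.3% on X. On 3R the 243 pairs with a summit had 222 summits, so some summits there counted for several pairs, while 2L had 152 summits at 150 pairs. On the small chromosome 4 the share was 1 of 7 pairs. The X share in the replicates was 23.2%, 29.8% and 27.3% (mean 26.8% ± 3.32), below each of the 4 large autosomal arms in every replicate.

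Base composition differed between pairs with and without a summit. Windows reaching 50 bp to each side of head-to-head summits had a mean GC content of 33.2%, against 48.5% in windows 400 bp away. With starts at most 500 bp apart, most windows 400 bp away lie downstream of a start. Every comparison with them thus also sets upstream against transcribed DNA, and the share of that contrast was not tested. Single-gene promoter summits had 35.8%, and over the replicates the head-to-head summits were lower by 2.94 points (a difference of -2.94 ± 0.277, 3 of 3 replicates, exact sign permutation p = 0.25). At the midpoint between the starts, pairs with a summit had 30.9% and pairs without 35.2%.

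Close starts, around which the window reaches into the genes, had GC-rich midpoints. At 0 to 100 bp pairs with and without a summit had 44.8% and 44%, and at over 200 to 300 bp 25.5% and 30%. The second difference was -4.38 points ± 0.268 over the replicates, in 3 of 3 (exact sign permutation p = 0.25). Among the pairs with starts over 200 to 400 bp apart, put in 4 groups by midpoint GC, 56.2%, 55.1%, 53.2% and 29.2% had a summit from the lowest to the highest GC. The replicate means of the 4 groups were 56.2%, 52.7%, 50.6% and 27.4%. The fourth, at 31.7% GC or more, was lower than the first by 28.8 points ± 3.13 in 3 of 3 replicates (exact sign permutation p = 0.25), and the differences among the first 3 groups were not tested. The GC grouping was chosen after values were seen, and whether GC content affects the recovery of fragments was not tested.

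**Figure D4:**
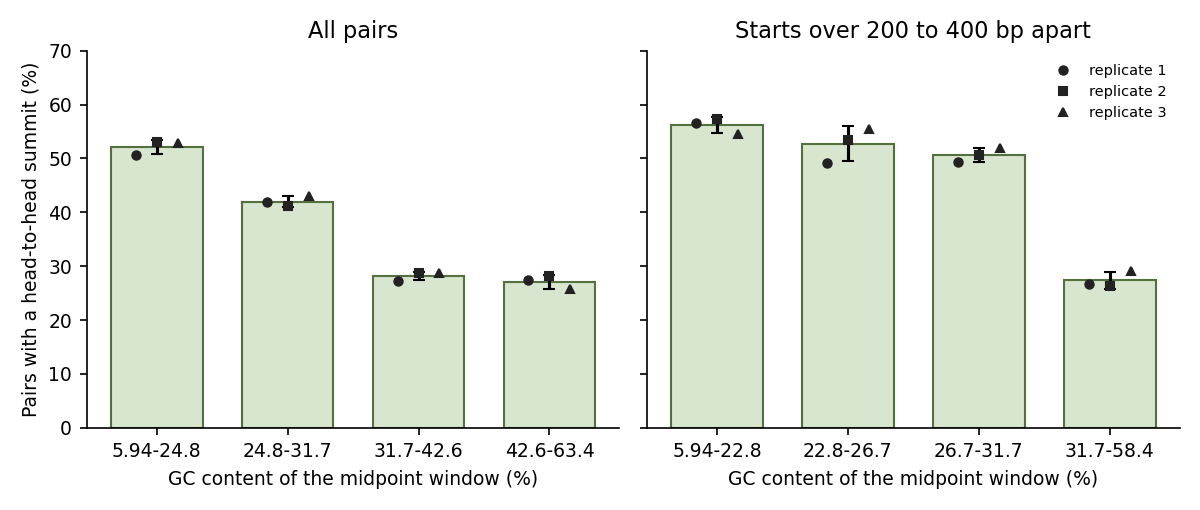
Share of head-to-head pairs with a summit in percent, by the GC content in percent within 50 bp of the midpoint between the starts, for all 1995 pairs (left) and for starts over 200 to 400 bp apart (right); bars are means of 3 replicates, error bars the SD, points the replicates. At over 200 to 400 bp the first 3 groups stand above 50% on average and the fourth is below 30%.

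The motifs were searched on both strands in the same windows, and a match only describes the letters. The DRE (TATCGATA) was in 5% of head-to-head summit windows, 2.54% of single-gene promoter summits and 0.592% of windows 400 bp away. Over the replicates it was more frequent at head-to-head than at single-gene summits by 3.01 points ± 0.797 in 3 of 3 (exact sign permutation p = 0.25). The BEAF-32 core (CGATA), which every DRE contains, was in 26.4% against 21.3%, a replicate difference of 5.35 points ± 1.71. In windows reaching 100 bp to each side these differences were 5.21 points for the DRE and 11.8 for CGATA. The DRE windows printed for RpL28/eIF1 and Su(P)/CG4101 belong to summits with optimal signals of 242.1 and 217.7.

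Compared between pairs rather than between summits, the DRE had the opposite sign. It lay at 4.64% of the midpoints of pairs with a summit and 7.47% of pairs without, where all pair midpoints had 6.37%. The replicate difference was -2.66 points ± 0.637 in 3 of 3 (exact sign permutation p = 0.25). CGATA was in 21.3% and 30.7% of these midpoint windows (27% of all), a difference of -9.98 points ± 1.47. The M1BP core motif 1 (GGTCACAC) was in 1.55% and 4.92% (3.61% of all), a difference of -3.26 points ± 0.518. The midpoint groups also differed in start distance, with 130 of 776 pairs with a summit and 300 of 1219 without at 0 to 100 bp. At such close starts the midpoint window reaches both starts. Motif shares at midpoints were not compared within a distance class, so these differences cannot be told apart from those in start distance.

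The letters TATAAA were in 26.9% of midpoints with a summit and 20.2% without (22.8% of all), a replicate difference of 7.01 points ± 0.924. The homeodomain core TAATTA was in 15.7% and 8.7% (11.4% of all), a difference of 6.61 points ± 0.297. Both are made of A and T alone, and the pairs with a summit had the lower GC content given for these midpoints. GATAAG was in 4.25% and 7.63%, and the E-box CAGCTG in 6.19% and 8.86%, with differences of -3.51 ± 0.641 and -2.41 ± 0.687. Each of these 4 differences kept its sign in 3 of 3 replicates (exact sign permutation p = 0.25).

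Motif 7 (CATCNCTA), a fly core promoter element, was in 4.74% of head-to-head and 3.25% of single-gene summits, and in 2.58% and 2.63% of midpoints with and without a summit. Motif 6 (GTATTTT) was in 7.5% and 6.32% of summits, and in 8.63% and 7.55% of midpoints. GAGAG was in 6.18% and 9.74% of summits, with a replicate difference of -3.97 points ± 2.72, which was -2.4 points without replicate 1. TCAGT, the initiator letters, was in 16.2% and 18.8%. The CTCF core AGGTGGCG was in 0 of the 760 windows, the Su(Hw) core GCATACTT in 3 and the Zelda motif CAGGTAG in 1. GGTCACAC was in 1.71% and 1.67% of the summits, a difference that was -0.354 points over the replicates in the stronger 1922 peaks. GATAAG was in 6.18% and 5.26%, with differences of -0.344, 0.764 and -0.287 points in replicates 1, 2 and 3 and so no steady sign.

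**Figure D5:**
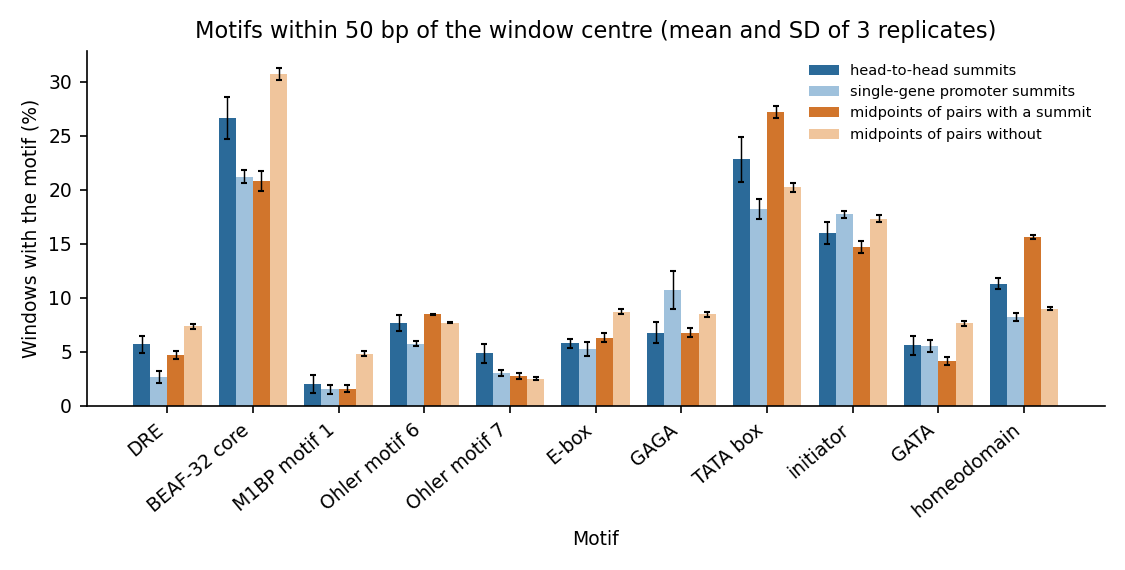
Share of windows (50 bp to each side of the centre) in percent holding each of the 11 motifs that passed 1% of head-to-head summits, in 4 kinds of window; bars are means of 3 replicates and error bars the SD. DRE and BEAF-32 core are higher at head-to-head than at single-gene summits and lower at midpoints of pairs with a summit than without.

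Among all 7-mers, ranked on arms 2L, 3L and X by their excess over windows 400 bp away, the first 10 consisted of A and T alone. Those windows mostly lie downstream of a start and were richer in GC, so such a ranking also follows from the windows chosen. The first, AAATAAA, was in 25.2% of 400 head-to-head windows there against 5.88% of windows 400 bp away, and on the remaining arms in 19.7% of 360 against 6.25%. It was also in 15.5% of single-gene summits and 16.4% of midpoints without a summit.

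Among 7-mers with at least 3 G or C, a limit chosen after the ranking was seen, AGTGTTG came first. On the remaining arms it was in 7.78% of head-to-head windows against 0.417% of windows 400 bp away. It was in 6.23% of single-gene summits, 3.61% of midpoints without a summit and 1.14% of summits away from promoters. Next came CTATCGA and ACTATCG, which overlap the DRE letters, with 7.22% and 6.67% on the remaining arms, against 0.833% and 0.972% in the windows 400 bp away. CTATCGA was in 4.91% of single-gene summits and 8.61% of midpoints without a summit, and ACTATCG in 4.91% and 5.17%. AGTGTTG peaks included Fur1/Vps33B, a furin protease gene and a vesicle sorting gene, with signals of 169, 182.9 and 215.9 at ranks 110, 64 and 69. Ino80/Aptx, a chromatin remodeller and a DNA repair gene, had signals of 126.2, 94.62 and 136.1 at ranks 247, 320 and 211. Both peaks were in the top 320 of every replicate.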

How the data were processed

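Peaks of anti-GFP ChIP-seq in 3 replicate libraries were taken as deposited on dm6. The deposited listings record that the authors called every replicate against a control alignment and obtained the optimal set from the replicate and pooled calls by IDR. Which aligner and caller they ran is not given in the sources used here. Signal, as written by the authors, has a scale that depends on depth and was used only for ranks and comparisons within a list. The deposited −log10 q values were not used. The control, the pooled list and the dm3 lists were not used here.

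Starts were the 5′ ends of protein-coding transcripts of protein-coding genes in Ensembl release 115 (BDGP6) on 6 arms, and a summit was 1-based. Where several start pairs qualified, the one with the smallest summed distance to the summit described it. The share of positions allowed between starts g bp apart was the number of bases between them over the length of the window within 500 bp of both. Pairs were binned by their smallest start distance, which also set the window length, and a summit at any of their start pairs counted. Replicate differences were tested with the exact two-sided sign permutation test. Motifs were searched within 50 bp of a summit or midpoint. Named pairs were the 20 strongest matched in all replicates, the strongest per distance class, the 3 strongest of each gene list, the strongest and weakest 3 outside the starts, carriers of leading motifs, those at the limits, and CG12942. The weakest 3 are not reported here.

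The members, lists and motifs were chosen with earlier results of these data known. Alternatives changed the distances, the transcripts, the peak number, the match distance, the motif window, the counting of rows with equal ends (22 in the optimal set) and the replicates used. Functions were tested on simulated positions. Python 3.11.15, numpy 2.4.6, pandas 2.3.3 and matplotlib 3.10.9 were used.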

Additional observations from a re-analysis of the deposited data

How the results depend on the processing

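The count of 760 head-to-head summits was 338 with starts at most 250 bp apart and 469 in the stronger 1922 peaks, and 591 to 644 with a replicate left out. The 38.9% of pairs with a summit became 28.9% with summits within 250 bp, 40.6% within 1000 bp, 34.6% and 31.7% with starts at most 250 and 1000 bp apart, and 25.1% in the stronger 1922 peaks. It was 30.2% to 32.8% with a replicate left out, where the set was the top 3844 peaks of 1 remaining replicate matched in the other and therefore smaller. The 83.4% of summits between the starts became 78.8% within 1000 bp and 59.5% with starts at most 250 bp apart, and 82.3% to 84% with a replicate left out.

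The signal difference of 11.8 points from single-gene promoters stayed positive under every alternative run, with 3.22 in the stronger 1922 peaks, 1.56 on the whole lists and 10.7 to 13.3 with a replicate left out. The difference of 7.06 points in matching was 10.4 within 250 bp, 1.95 in the stronger 1922 peaks and 4.47 to 7.15 with a replicate left out, for which optimal summits matched in both remaining replicates were counted. The 18.4 points between start distances of over 200 to 300 and 0 to 100 bp were 16.9 to 20 with a replicate left out.

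Of 70 motif alternatives for head-to-head against single-gene summits, 66 kept their sign. Within 100 bp the differences were 5.21 for the DRE (3.01 as reported), 11.8 for CGATA (5.35), 6.92 for motif 7 (1.82), 6.2 for the E-box (0.545), 8.69 for TATAAA (4.66), 6.73 for TAATTA (3.12), -5.89 for TCAGT (-1.69) and -10 for GAGAG (-3.97; -2.4 without replicate 1). The M1BP difference was -0.354 in the stronger peaks. The GATA difference was -0.565 within 100 bp, -0.627 in the stronger peaks and -0.315 to 0.239 with a replicate left out, the lowest without replicate 2. Of the first 10 7-mers, 8 stayed among the first 10 within 100 bp and 7 in the stronger peaks. The cause was not tested for any of these. Differences were taken within each replicate, so no further block could be added with 1 group. The unknown read depth limits comparisons to ranks. With 3 replicates the sign permutation test used here cannot give an exact p under 0.25.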
